A study of Drosophila melanogaster with 2 samples.

Results

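The dpr, DIP, beat and side genes of Drosophila melanogaster encode cell surface and secreted proteins with immunoglobulin domains. The rule took every protein-coding gene of the Ensembl BDGP6 annotation whose symbol is dpr with a number, DIP- with a Greek letter name, beat- with a Roman numeral, or side alone or with a Roman numeral. It found 54 of the 13968 protein-coding genes on the chromosome arms, namely 21 dpr, 11 DIP, 14 beat and 8 side genes. The rule itself used no measured value, but it was chosen with earlier results of these data known. The binding data came from chromatin immunoprecipitation followed by sequencing (ChIP-seq) with an antibody against GFP, in flies of a transgenic line that stably makes Ets96B, an ETS-family transcription factor, with eGFP at its C terminus. Whole prepupae aged 24 h, males and females pooled, gave 2 biological replicates of 1 group, numbered 2 and 3. All samples carried the transgene, and the regulatory sequence that drives it is not given in the sources used here.

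Dpr proteins bind DIPs (Dpr-interacting proteins) on the surfaces of partner neurons, and Beat proteins bind Side proteins. Each family has many members, and subsets of neurons express different combinations of them. In the fly nervous system such pairs act in axon guidance, in the choice of synaptic partners and in neuronal survival during metamorphosis. Whole prepupae hold many tissues beside neurons, so fewer cells with a bound site and weaker binding in each cell cannot be told apart in these lists.

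The analysis used 4 peak lists deposited on dm6. The reproducible list held 8015 peaks. The pooled list and the replicate lists held 30000 each, so the 8015 strongest peaks of each replicate served to show replicate error. A summit is the base of highest signal in a peak. The signal value is the authors' own score and ranks peaks within a list. Read depth is unknown from these files. With 1 group and no untagged samples in the analysis there was no contrast between samples to test. Shares and densities are therefore given beside those of other genes as descriptions, with no p-value.

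The sequences under the strongest summits of 4 of these genes, and under all 3 summits near their start sites, show what the bound regions look like. Each is the 101 bases centred on a summit, 5′ to 3′ on the plus strand of dm6, read from the RefSeq copy of the assembly. Capitals mark TAATTA (the homeodomain core) or the GATA word, which is AGATAA with A or T as its first base and A or G as its last, on either strand. The first 4 lie in introns, at chr2L:15911197-15911297, chrX:3546275-3546375, chr3R:13452950-13453050 and chr2L:17243489-17243589. The last 3 lie upstream of a start site, at chrX:7908659-7908759, chr2L:10375884-10375984 and chr2L:5618125-5618225.
beat-Ib: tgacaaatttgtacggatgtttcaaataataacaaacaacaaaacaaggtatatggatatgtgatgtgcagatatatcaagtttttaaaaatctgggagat
DIP-alpha: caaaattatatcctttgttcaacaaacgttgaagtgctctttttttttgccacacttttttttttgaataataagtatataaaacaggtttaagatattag
side-IV: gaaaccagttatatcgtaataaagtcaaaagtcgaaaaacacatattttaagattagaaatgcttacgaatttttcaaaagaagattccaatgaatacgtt
beat-IIIc: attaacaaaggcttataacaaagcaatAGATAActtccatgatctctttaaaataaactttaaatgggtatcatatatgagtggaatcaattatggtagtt
dpr14: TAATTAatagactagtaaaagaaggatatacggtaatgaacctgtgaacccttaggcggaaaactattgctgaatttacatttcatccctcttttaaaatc
dpr19: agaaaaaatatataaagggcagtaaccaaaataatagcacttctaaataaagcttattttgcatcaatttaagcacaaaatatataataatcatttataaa
DIP-eta: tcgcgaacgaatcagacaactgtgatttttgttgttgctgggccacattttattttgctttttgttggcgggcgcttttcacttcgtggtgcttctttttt

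Of these 7 windows, 5 held neither word. The DIP-eta window had the highest G+C content of the 7, 42.6%, and the dpr19 window the lowest, 20.8%.

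The 54 genes were sparsely bound in spite of their size. They are long and mostly intron. Their median length was 36.2 kb, against 2.16 kb for all protein-coding genes, and introns made up a median of 89.7% of the gene, against 14.3%. In their 2.52 Mb of gene body the reproducible list placed 21 summits, or 0.0833 per 10 kb (exact Poisson 95% interval 0.0516 to 0.127, counting error only). All protein-coding gene bodies together carried 0.533 per 10 kb. The gene bodies covered 1.88% of the chromosome arms and held 0.262% of the reproducible summits.

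Gene length was matched by setting each gene beside the 100 protein-coding genes outside the families that were nearest to it in length. The match was loose for the longest genes. The 100 genes ran from 91687 to 709421 bp for DIP-lambda (379 kb) and from 90970 to 291517 bp for dpr6 (165 kb). These 2 genes had 20.4 and 9.02 expected summits. Genes of like length would have given 159.6 summits in the same sequence, so the 21 found were 0.132 of that number. Among their strongest 8015 peaks, replicate 2 gave a ratio of 0.150 and replicate 3 one of 0.138, a mean of 0.144 ± 0.008 (SD, n = 2). The density over the same lists was 0.0892 ± 0.0028 summits per 10 kb (SD, n = 2). All 54 genes lay below the mean density of their like-length genes, which was certain in advance for the 41 with 0 summits. Since a few heavily bound genes raise such means, the position among the 100 genes is also given. The median gene of the families stood at percentile 21.3, and 3 of the 54, beat-Ib, dpr10 and side-IV, exceeded the median density of their like-length genes.

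**Figure D1:**
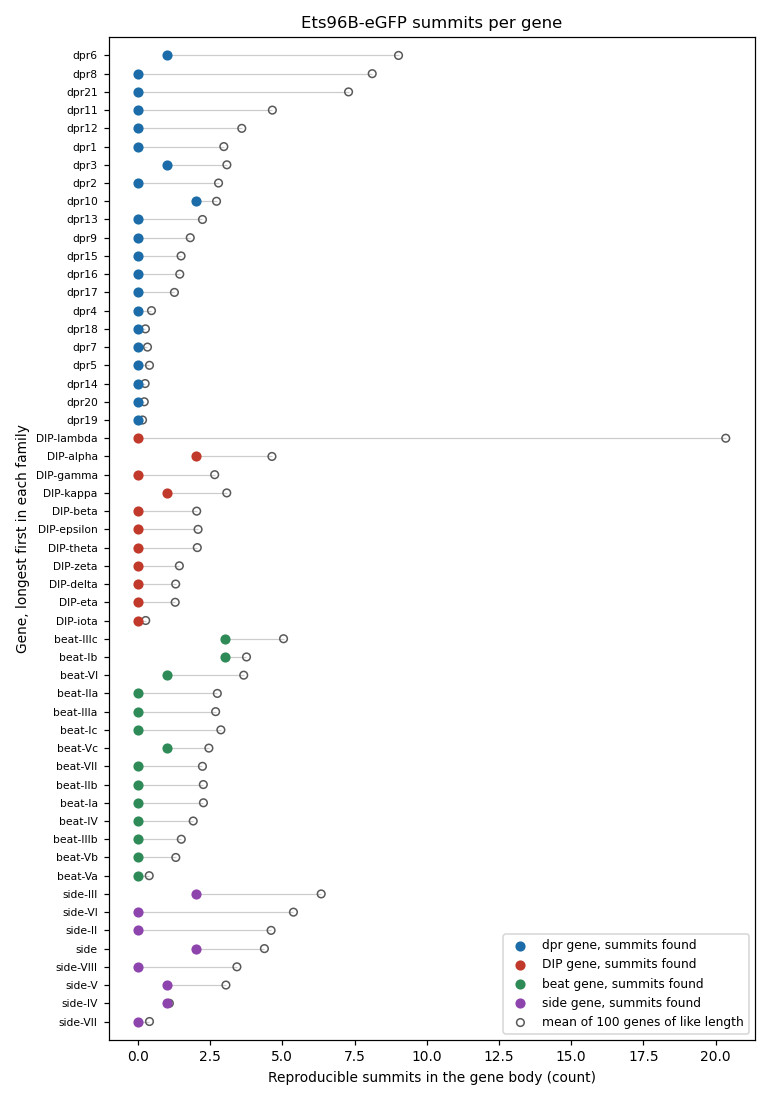
Reproducible summits in the gene body of each of the 54 genes (filled points, x axis in counts), grouped by family with the longest gene first, beside the mean of the 100 genes of like length scaled to the same length (open points). No filled point exceeds 3, and 41 of the 54 stand at 0.

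The 54 genes had a summit in the gene body in 13 cases (24.1%). Over all protein-coding genes the share was 15.2%, but that set is far shorter, and among the like-length genes the share averaged 58.6%. The strongest peaks of replicate 2 and of replicate 3 each marked 14 of the 54, against 15.8% and 15.1% of all genes. The replicates shared 12 of those genes, 85.7% of each set. Beside the 12, replicate 2 marked DIP-gamma and beat-VI, of which beat-VI is also among the 13, and replicate 3 marked beat-IIa and dpr1. The share of marked genes common to both replicates was not computed over all protein-coding genes. Of the 33 family genes longer than 30 kb, 12 held a summit (36.4%), while 436 of the 637 other genes of that size did (68.4%).

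**Figure D2:**
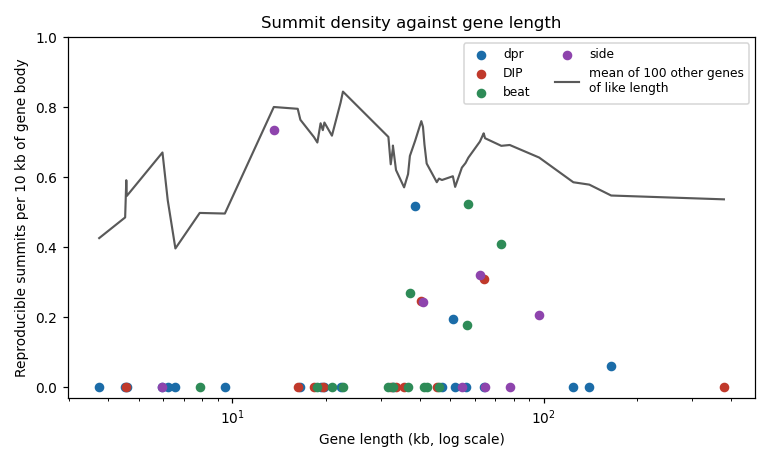
Density of reproducible summits in the gene body (per 10 kb) against gene length (kb, log scale) for each of the 54 genes, coloured by family, with a line for the mean of the 100 other genes of like length. All points lie below the line, and the longest gene with a summit is dpr6 at 165 kb.

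Start sites were rarely marked. A reproducible summit lay within 500 bp of an annotated transcription start site (TSS) in 3 of the 54 genes (5.56%), against 20.5% of all protein-coding genes and an average of 34.8% of the like-length genes. A gene with more TSSs offers more places for such a summit, and the shares were not adjusted for that. The 54 genes had 67 TSSs, and all 13968 protein-coding genes had 19630. Replicate 2 marked 2 and replicate 3 marked 4 of the 54, against 21.5% and 20.4% of all genes. Together, TSSs and gene bodies gave 16 marked genes (29.6%), against 26.7% of all genes, and 38 of the 54 had no reproducible summit at either place.

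The 3 genes with a TSS summit were dpr14, dpr19 and DIP-eta, and each summit lay upstream of the gene, in intergenic sequence. The dpr14 summit, at 7908709 on X, had a signal value of 602. The peak there ranked 1791 in replicate 2 and 1605 in replicate 3. It stood 423 bp from the dpr14 TSS and 222 bp from that of spidey, a gene for an enzyme of fatty acid and steroid metabolism. The dpr19 summit, at 10375934 on 2L, had a signal value of 358 and ranks 3294 and 3315 in replicates 2 and 3. It stood 234 bp from dpr19 and 177 bp from CG33303. Both summits thus lay nearer to the start of the neighbouring gene.

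DIP-eta encodes a DIP family receptor. Its summit, at 5618175 on 2L, lay 229 bp upstream of the TSS, and the nearest TSS of another gene was 5587 bp away. Its signal value was 188. It overlapped the peak of rank 4969 in replicate 3 and no peak in replicate 2. The only one of the 3 summits with DIP or dpr as its nearest start was therefore seen in 1 replicate list.

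Weaker peaks near start sites were found in the pooled list, where 11 of the 54 genes (20.4%) had a summit within 500 bp, against 40.3% of all genes. The further genes were beat-IIIc, beat-IIa, dpr10, dpr3, side, side-IV, side-V and side-VII. Their strongest summits had signal values of 25.4 at dpr3 to 114 at beat-IIIc, below the 148 of the weakest reproducible peak. Among the 30000 peaks of replicate 2, summits also lay at the TSSs of beat-IIb, DIP-epsilon, dpr8 and dpr16, which neither the pooled list nor replicate 3 marked there.

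All 21 gene-body summits were intronic. The nearest to an annotated TSS of its own gene lay 2410 bp away, the median was 18.1 kb and the farthest 136 kb. Within 2 kb of a TSS of the gene there were 0 of 21, which allows a share of up to 14.3% (3 counts of the 21, counting error only). That stretch was 133.6 kb of the families' 2.52 Mb of gene body, so 0 of 21 rests on little sequence. In the 1918 like-length genes, each counted once and so no longer matched gene by gene, 31.8% of 3379 body summits lay within 2 kb. The share was 9.17% of 120 in a list of other immunoglobulin recognition genes and 20.0% of 85 in a list of axon guidance genes, so the value of the first list lies within what 0 of 21 allows. Per 10 kb of gene body within 2 kb of a TSS, the families had 0 summits and the like-length genes 1.24. From 10 to 20 kb the values were 0.216 and 0.501, and beyond 20 kb they were 0.0654 and 0.326. The families' density was below that of the like-length genes in every distance class examined, and the class nearest the start was among the empty ones.

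Intron 2 held most of the summits. Of the 21, 16 lay in intron 2 of the transcript with most exons that spans the summit, 2 in intron 1 and 3 in later introns. Intron 2 made up 33.7% of the intron length of the 54 genes and carried 0.210 summits per 10 kb, while intron 1 carried 0.0406 and later introns 0.0300. The 16 were clustered, with 3 in beat-Ib, all within 2.61 kb, and 3 in beat-IIIc, of which a pair shared 1 peak interval. The share of summits in intron 2 was not computed for other genes, so it is not given as a trait of these families. None of the 21 lay within 500 bp of the TSS of another protein-coding gene. That allows a share of up to 14.3%, which covers the 4.14% of body summits in the like-length genes. Most of the 21 nevertheless lay nearer to a TSS of another protein-coding gene than to one of their own gene.

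**Figure D3:**
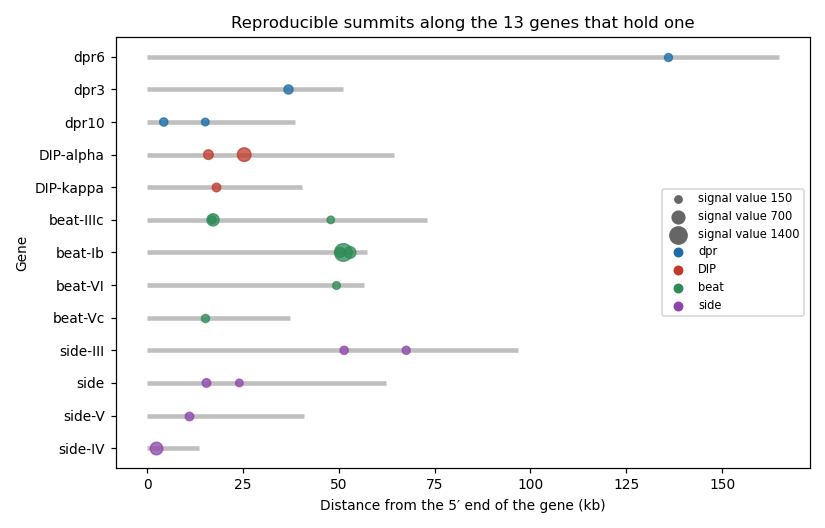
The 21 gene-body summits along the 13 genes that hold one, as distance from the 5′ end of the gene (kb). Grey bars give the gene length, point area grows with the authors' signal value, and colours mark the family. The summits of beat-Ib stand together near the 3′ end of that gene.

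The dpr genes encode the surface partners of DIPs. Of the 21 dpr genes, 3 held body summits, 4 in all, where like-length genes would have given 54.6 (ratio 0.0733). The replicate lists gave 0.0759 and 0.0735. dpr10 had both of its summits in intron 2, at 4.34 and 15.2 kb from the nearest TSS, with signal values of 218 and 169. The first ranked 4425 in replicate 2 and 7069 in replicate 3. dpr6 spans 165 kb and had 1 summit, with a signal value of 198, in its last intron at 136 kb. dpr3 had 1 summit with a signal value of 298, ranked 4339 and 4073 in replicates 2 and 3. The long genes dpr8 (140 kb) and dpr21 (125 kb) had 0 reproducible summits. dpr8 had 10 in the pooled list, the strongest at rank 9151, and dpr21 had 0 in that list too.

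Of the 11 DIP genes, which encode the receptors of Dpr proteins, 2 held body summits, 3 in all, where like-length genes would have given 41.2 (ratio 0.0728). Replicate 2 gave 0.102 and replicate 3 gave 0.0731. DIP-alpha, the receptor for Dpr6 and Dpr10 in motor neurons and the visual system, had 2 summits in intron 2. The stronger, at 3546325 on X, had a signal value of 818 and ranks 1120 and 1034 in replicates 2 and 3. The other, at 3555657, had 344 and ranks 3243 and 3607. DIP-kappa had 1 summit with a signal value of 246. DIP-lambda is the longest gene of the families (379 kb) and had 0 summits in all 4 lists. Its sequence was 33.8% soft-masked in RefSeq, as repeats and low-complexity sequence are, against a median of 17.8% over the 54 genes, and the part of mappability in its count was not tested.

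The beat genes encode receptors and secreted proteins first known from motor axons. Of the 14, 4 held body summits, 8 in all, where like-length genes would have given 35.1 (ratio 0.228). The replicate lists gave 0.290 and 0.226. beat-Ib held the strongest summit of all 54 genes, at 15911247 on 2L. Its signal value was 1470, and it overlapped the peaks ranked 373 in replicate 2 and 306 in replicate 3. A further 2 summits of beat-Ib, with signal values of 564 and 404, lay beside it, so that all 3 fell within 2.61 kb of intron 2, near the 3′ end of the gene and 50.3 to 52.9 kb from its TSS. They stood closer to the starts of CG13244 and CG31821, at 4785 to 7088 bp, than to that of beat-Ib.

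beat-IIIc also had 3 summits, of which a pair with signal values of 633 and 207 shared 1 peak interval, and the third had 161. beat-IIIc had the highest number of pooled summits in the families, 28. beat-Vc and beat-VI had 1 summit each, with signal values of 210 and 182, and that of beat-VI overlapped no peak in replicate 3. beat-IIb had 14 summits in the pooled list and 0 in the reproducible list, its strongest at rank 12981. beat-Ia, the founding member of the family and the partner of Side, had 0 in all 4 lists.

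Of the 8 side genes, 4 held body summits, 6 in all, where like-length genes would have given 28.7 (ratio 0.209). The replicate lists gave 0.181 and 0.245. side-IV had the summit nearest to a TSS in the families, 2410 bp into the gene in intron 2. Its signal value was 679, with rank 1078 in replicate 2 and 1768 in replicate 3. side, whose product on muscle attracts motor axons, had 2 summits, at 15.5 and 24.1 kb, with signal values of 251 and 167. side-III had 2, with 214 and 207, of which the weaker overlapped no peak in replicate 2. side-V had 1 with 243. side-VI (77.8 kb) and side-II (64.8 kb) had 0 reproducible summits.

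The ratio was thus below 0.3 in each family in the reproducible and replicate lists. The beat and side values were above those of dpr and DIP in the reproducible list and in both replicate lists. The DIP value rests on 1 gene, since DIP-lambda alone accounted for 20.4 of the 41.2 summits expected there, and without it the DIP ratio was 0.144. With the longest gene of each other family left out, the ratios were 0.0658 for dpr, 0.166 for beat and 0.179 for side. These values were computed after seeing the data. With 2 replicates and 8 to 21 genes a family, no test of the difference between families was made.

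**Figure D4:**
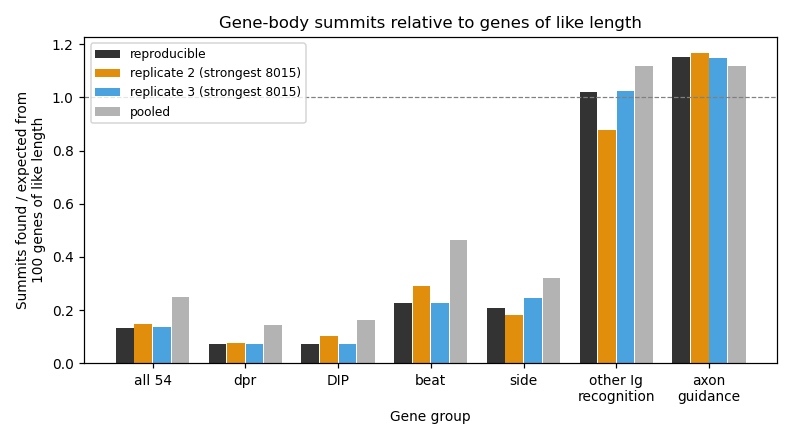
Gene-body summits found divided by the number expected from the 100 genes of like length (y axis, ratio), for all 54 genes, each family and 2 comparison lists, in 4 peak lists. The dashed line marks a ratio of 1. The family bars lie between 0.0728 and 0.464, and the bars of the comparison lists lie between 0.877 and 1.17.

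Known partners were set side by side, from a list of 11 pairs. DIP-alpha had body summits and so did both of its partners in that list, dpr6 and dpr10, with 2, 1 and 2 summits. These pairs are not independent, since they share DIP-alpha, and dpr6 ends at 10139360 on 3L, close to dpr10 from 10147454. How often other pairs of genes of such length both hold a summit was not computed. Both DIP-alpha summits lay nearer to the TSS of ppk8, at 11487 and 2155 bp, than to one of DIP-alpha. The dpr6 summit and 1 of the 2 dpr10 summits were likewise nearer to another gene, CG42826 at 9746 bp and CG6628 at 3907 bp. Which gene these summits serve was not tested. DIP-gamma and dpr11, and DIP-delta and dpr12, had 0 reproducible summits in both genes. In the other 7 pairs, at most 1 of both genes held a summit. side held 2 and beat-Ia held 0, while side-II held 0 and beat-VI held 1. side-IV held 1, and beat-IIa and beat-IIb held 0. side-VI held 0, as did beat-Va and beat-Vb, and beat-Vc held 1.

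The 24 summits in the bodies or at the TSSs of the 54 genes were spread over the ranks of the reproducible list. Their signal values ran from 161 to 1470 with a median of 245, against a range of 148 to 5811 and a median of 293 for all 8015. By rank, 6 were among the strongest 2003 peaks and 10 among the strongest 4007. In the replicate lists, 21 of the 24 overlapped a peak in both, 2 lacked one in replicate 2 and 1 lacked one in replicate 3. The same overlap was not computed for all 8015.

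**Figure D5:**
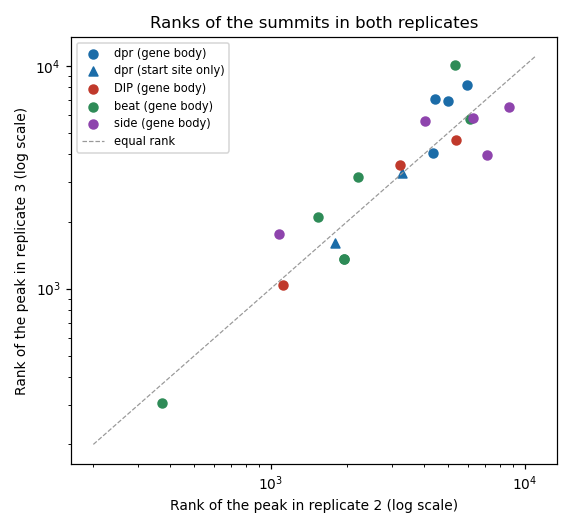
Rank of the peak that overlaps each summit in replicate 2 (x axis) and in replicate 3 (y axis), both on log scales, for the 21 summits with a peak in both. Circles are gene-body summits, triangles are summits near a start site only, colours mark the family, and the dashed line marks equal rank. A pair of beat-IIIc summits in 1 interval shares a point.

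The lower part of the pooled list added many weak summits. It had 164 summits in the 54 gene bodies, or 0.249 of the 659 expected from genes of like length, in 24 genes (44.4%), against 28.2% of all genes. Of the 164, 12.8% (exact Clopper-Pearson 95% interval 8.10 to 18.9, counting error only) were in the reproducible list. Over all gene bodies the share was 25.4% (24.8 to 26.0) of 19408 summits. The median pooled signal value was 57.8 in the 54 genes and 67.2 in all gene bodies. Of the 54 genes, 11 had body summits in the pooled list and 0 in the reproducible list. Over all 13968 genes, 3935 had a body summit in the pooled list and 2119 in the reproducible list. The 54 genes had 24 and 13, a like proportion, so the 11 are not a trait of these families. Of the 11 genes, DIP-gamma came nearest, with its best summit at rank 8168, followed by beat-IIa at rank 8414. For 17 of the 54 genes none of the 4 lists had a summit at a TSS or in the body. The longest of them were DIP-lambda, dpr21, dpr2, beat-Ic, dpr13 and beat-Ia. The share of all genes without a summit in any list was not computed, so the 17 are given as a description only.

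The sequence around the genes was also sparsely bound. In the 10 kb on each side of the 54 genes there were 20 reproducible summits, or 0.185 per 10 kb, against 0.787 per 10 kb beside the genes of like length, a ratio of 0.235. Replicates 2 and 3 gave 0.251 and 0.273, and the pooled list 0.368. Neighbouring genes lie in these flanks, and members of 1 family can flank each other.

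The same measure was taken for lists of other recognition and axon guidance genes, which were not limited to genes of neurons. A list of 36 other immunoglobulin recognition genes held 120 summits in their bodies, 1.02 times the number from genes of like length, with 0.877 in replicate 2 and 1.02 in replicate 3. The most were in kirre (39), a myoblast and neuronal adhesion gene, ed (12), Fas3 (10), Fas2 and Sema1a (8 each). Without kirre the ratio was 0.839. A list of 32 axon guidance genes held 85, at a ratio of 1.15, led by Ptp10D, Sema1a and ena with 8 each, fra, a Netrin receptor gene, with 7, and Abl, NetA, NetB, dnt, robo2, sli and unc-5 with 5 each. In the first list 22 of 36 genes (61.1%) and in the second 19 of 32 (59.4%) had a body summit. Over all protein-coding genes the share was 15.2%, and genes of like length averaged 54.8% for the first list and 55.8% for the second. For the 54 genes the share was 24.1%, beside 58.6% in their like-length genes. Both lists share 3 genes, and the choice of lists was made with earlier results of these data known.

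Sequence words within 50 bp of the 24 summits were counted beside those of all 8015. Both strands were searched, and no word contains another. The ETS word, which is CAGGAAA with A or C as its second base and A or G as its last, was present at 0 of 24, which allows a share of up to 12.5% (3 counts of the 24), against 2.45% of all summits. TAATTA was at 4 of 24 (16.7%, exact Clopper-Pearson 95% interval 4.74 to 37.4), against 11.02%. The GATA word spelled out above was at 4 (16.7%), against 22.9%. GAGAG was at 0 and the DRE word TATCGATA at 0, against 10.2% and 0.524%. The E-box CANNTG was at 5 (20.8%, 7.13 to 42.2), against 31.7%, and the ETS word read backwards without complementing (AAAGGAC, with the same alternatives) at 1, against 1.83%. With 24 summits these intervals and limits cover the shares of all summits. The median G+C content of the 101 bases was 27.2% at the 24 summits and 29.7% at all 8015.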

How the data were processed

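The authors deposited 4 narrowPeak lists on dm6. Those of replicates 2 and 3 and the pooled list were derived from alignments with a control, per the deposited description files, and the reproducible list from the replicate and pooled lists by an irreproducible discovery rate threshold. Aligner, peak caller and threshold values were not given in the sources used here. The authors' signal value of each peak was used as deposited to rank peaks within a list.

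Summits were placed on Ensembl release 115 with numpy 2.4.6 and pandas 2.3.3. TSS counts used a window of 500 bp around 19630 TSSs. Gene bodies ran from annotated start to end. Counting code was tested on simulated summits. Intervals (95%) came from scipy 1.17.1 and cover counting error only. Named genes were those with a TSS summit, the 10 with most body summits, the 5 longest without one and those with weaker TSS peaks. For the comparison lists they were the 5 with most body summits, ties included. Members, lists and rules were chosen with earlier results of these data known. The replicates are of 1 group.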

Additional observations from a re-analysis of the deposited data

How the results depend on the processing

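The number of genes with a TSS summit, 3, was 0 with a window of 200 bp, 1 with each summit given to its nearest TSS, 11 in the pooled list, and 2 to 4 with either replicate alone. Genes with a body summit (13) were 5 among the 4007 strongest peaks and 24 in the pooled list, genes with either kind (16) were 7 and 27, and body summits (21) were 8 and 164. The density was 0.0317 per 10 kb among the strongest peaks, 0.650 in the pooled list, 0.0793 with 1 summit per interval, 0.0942 with 500 bp upstream added to each gene, and 0.0872 to 0.0912 with either replicate alone. The ratio to genes of like length was 0.103 among the strongest peaks, 0.249 in the pooled list, 0.141 with 500 bp upstream, 0.144 against genes within 1.2 times the length, 0.142 against the 50 nearest, 0.122 with intronic length and 0.138 to 0.150 with either replicate alone. It was 0.156 with 6 of the 54 genes left out for over 25% soft-masked bases, an alternative chosen after seeing the data. Each ratio was below 0.25. Genes above the like-length median (3) were 6 with 500 bp upstream. The median signal value was 583 among the strongest peaks, 61.3 in the pooled list and 94.9 to 159 on the replicates' own scales. Within 100 bp of the summit the shares were 29.2% for the homeodomain core, 29.2% for GATA, 16.7% for GAGA and 58.3% for the E-box, against 18.1%, 37.8%, 22.9% and 56.4% of all 8015 summits in that window. With either replicate alone they ran from 4% to 15.4% for the homeodomain core, 19.2% to 24% for GATA, 3.85% to 4% for GAGA and for the ETS word read backwards, and 19.2% to 28% for the E-box. The cause of these movements was not tested. No paired analysis was possible because both replicates belong to 1 group. Read depth and the mappability of each gene were not available to set limits.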
